A study of Mus musculus with 6 samples.

Results

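Eph receptors and ephrins were examined in RNA-seq data from mouse colonic organoids, small epithelial cultures grown from isolated colon crypts. The 9 genes were taken by symbol, 6 receptors (Ephb2, Ephb3, Ephb4, Ephb6, Epha1 and Epha2) and 3 ligands (Efna1, Efnb1 and Efnb2), and all 9 were found among the 25067 rows of the table. The organoids came from C57BL/6 mice aged 8 weeks with both alleles of Prkci and Prkcz floxed and the Villin-CreERT2 transgene, in which the Villin promoter drives a tamoxifen-activated Cre recombinase in intestinal epithelium. Prkci and Prkcz encode the atypical protein kinases C (aPKCs). After passage, the cultures received 4-OH-tamoxifen (4-OHT) or Vehicle (Ethanol) for 3 days in medium with WNT3A, EGF, Noggin and R-spondin 1, with 3 libraries in each group. The vehicle organoids, described as wild type in the sample labels, carried the same floxed alleles and the same transgene as the 4-OHT organoids. No 4-OHT library without floxed alleles or without Cre was analysed here, so loss of aPKC, Cre activity and 4-OHT cannot be told apart. The labels do not say whether the 3 libraries of a group came from separate animals or cultures, and the p-values therefore measure the spread between these libraries, which may be technical.

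Eph receptors form the largest family of receptor tyrosine kinases, and their ligands, the ephrins, stay attached to the surface of the neighboring cell. Ephrin-A proteins are held by a lipid anchor and ephrin-B proteins span the membrane, so that contact sends a forward signal into the receptor-bearing cell and a reverse signal into the ephrin-bearing cell. In intestinal crypts, EphB2 and EphB3 are under Wnt control and are highest toward the crypt base, ephrin-B1 and ephrin-B2 are highest in the differentiated cells above, and repulsion between these cells keeps them in their compartments.

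The recovered whole reads came to between 15804709 and 26957612 per library. Prkcz had normalised read counts of 880, 904 and 954 in vehicle replicates 1, 2 and 3 and 287, 265 and 290.3 in 4-OHT replicates 1, 2 and 3. Prkci had 3603, 3526 and 3430 in the vehicle libraries and 2869, 3105 and 3089 in the 4-OHT libraries, so each targeted gene was lower in every 4-OHT library, and reads on the deleted exons were not analysed here. Epithelial markers were abundant, and the 10 colon epithelium genes listed took between 20660 and 21140 reads per 1000000 (RPM) in the vehicle libraries and between 26690 and 28460 in the 4-OHT libraries, with 7 of the 10 higher and 2 lower by limma. Markers of other cells were highest in 4-OHT replicates 2 and 3. The 7 smooth muscle genes had at most 0.727 RPM in the other 4 libraries, against 3.32 and 8.29 in 4-OHT replicates 2 and 3. The 7 fibroblast genes reached 10.1 RPM in 4-OHT replicate 3 and at most 1.12 elsewhere. The 8 Paneth cell and ileal genes had between 35.8 and 54.8 RPM in the vehicle libraries and 4-OHT replicate 1, against 89.1 and 94.0 in 4-OHT replicates 2 and 3. Their 1746 and 1654 reads there exceeded the 961 and 891 of Ephb6, as did 1346 against 864 and 623 against 613 in vehicle replicates 2 and 3. Among them, Ang4 and Lyz1 had reads in every library. Defa24 had at most 6 reads and Fabp6 at most 4 outside 4-OHT replicates 2 and 3, which had 145 and 176 of Defa24 and 120 and 34 of Fabp6. The 8 immune genes had between 7.53 and 11.7 RPM in the vehicle libraries and 4-OHT replicate 1, against 19.1 and 11.9 in 4-OHT replicates 2 and 3. In the former, most of these reads were of Cd68, which had 116 to 299 reads in every library. Igha had at most 1 read in each of the former, against 135 and 40 in 4-OHT replicates 2 and 3. Igkc and Jchain had 0 reads in the former, against 39 and 15 and 30 and 7. The part of this material in the results was not tested, but values with 4-OHT replicate 1 alone are given below. That fit leaves 1 library in the 4-OHT group, so it holds no spread of that group. For members not given with it below, its log2 fold changes were 0.19 for Ephb3, 0.12 for Ephb4 and 0.26 for Epha2. They were 0.26 for Efnb1 and -0.28 for Efna1, and for the related genes Epha4 and Efna4 they were 0.35 and 0.42.

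To show regulatory sequence at members that moved in opposite directions, the 250 bases upstream of the RefSeq start (GRCm38.p6) are printed. They are those of Ephb2, the B receptor that fell, and of Ephb6 and Efnb2, which rose most. Ephb2 was taken for its direction, and its change was smaller than those of Efnb1 and Ephb3, which are not printed. Capitals mark the motifs searched on both strands, namely GGGCGG (a GC box), CAGGTG (an E-box), GGAATG (a TEAD motif) and CTTTGAT (a TCF/LEF motif), and no 2 matches overlapped.
Ephb2, minus strand, chr4:136836013-136836262: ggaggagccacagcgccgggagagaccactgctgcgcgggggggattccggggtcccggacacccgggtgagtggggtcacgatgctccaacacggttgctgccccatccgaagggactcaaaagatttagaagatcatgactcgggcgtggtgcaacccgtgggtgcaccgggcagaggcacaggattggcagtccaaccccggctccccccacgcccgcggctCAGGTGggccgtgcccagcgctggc
Ephb6, plus strand, chr6:41605261-41605510: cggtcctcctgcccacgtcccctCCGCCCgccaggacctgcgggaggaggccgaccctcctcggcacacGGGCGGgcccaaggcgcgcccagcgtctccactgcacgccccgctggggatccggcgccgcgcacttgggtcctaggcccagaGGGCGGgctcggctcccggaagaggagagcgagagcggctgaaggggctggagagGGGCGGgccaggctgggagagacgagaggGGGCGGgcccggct
Efnb2, minus strand, chr8:8661243-8661492: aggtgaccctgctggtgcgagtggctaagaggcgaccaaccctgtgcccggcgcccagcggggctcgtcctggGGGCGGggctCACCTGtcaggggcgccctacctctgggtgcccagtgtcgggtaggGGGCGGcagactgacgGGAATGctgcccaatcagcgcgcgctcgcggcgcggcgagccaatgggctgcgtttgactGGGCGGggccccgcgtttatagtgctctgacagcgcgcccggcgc

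All 9 members matched this promoter table, with 10 windows since Efna1 had 2 starts, and for 6 of the 9 the bases just after a RefSeq start were found in a transcript of GENCODE vM21, although not for Ephb2, Epha2 or Efnb1. The Ephb6 window held 5 GC boxes, the Efnb2 window held 3 with 1 E-box and 1 TEAD motif, and the Ephb2 window held 1 E-box and 0 GC boxes. A GC box was present upstream of 7 of the 9 members and in 32.7% of 32851 promoter windows of all genes. An E-box was present for 3 members, Ephb2, Epha1 and Efnb2, and in 17.2% of all windows. The TEAD motif was present for 3 members, Epha1, Epha2 and Efnb2, and in 12.6% of all windows. The TCF/LEF letters were in 0 of the 9 and in 3.21% of all windows, which says only that these letters are not in these windows. The members' windows had a GC content between 54.4% and 76.8%, against a median of 52.4% over all windows.

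To determine whether the receptors and ligands of the crypt axis differed between 4-OHT and vehicle organoids, log2 normalised read counts were compared with limma across the 13210 rows with a mean of at least 10. Of the 9 members, 5 rose in 4-OHT organoids (Ephb6, Efnb2, Efnb1, Epha2 and Ephb3), 2 fell (Ephb2 and Efna1), and 2 did not pass the test (Ephb4 and Epha1). These 7 calls of 9 stand beside a background in which 43.6% of all tested genes passed, 22.7% as higher and 21.0% as lower in 4-OHT. The median log2 fold change was 0.21 over the members and -0.0054 over all tested genes. Among all called genes the median size of the log2 fold change, in either direction, was 0.36. Of the 7 called members, only Ephb6 (0.65) and Efnb2 (0.53) were above it. For 6 of the 9 members the vehicle and 4-OHT values did not overlap, as was so for 52.1% of all tested genes. These are bulk libraries, and fewer cells of a type cannot be told apart from less RNA per cell.

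**Figure D1:**
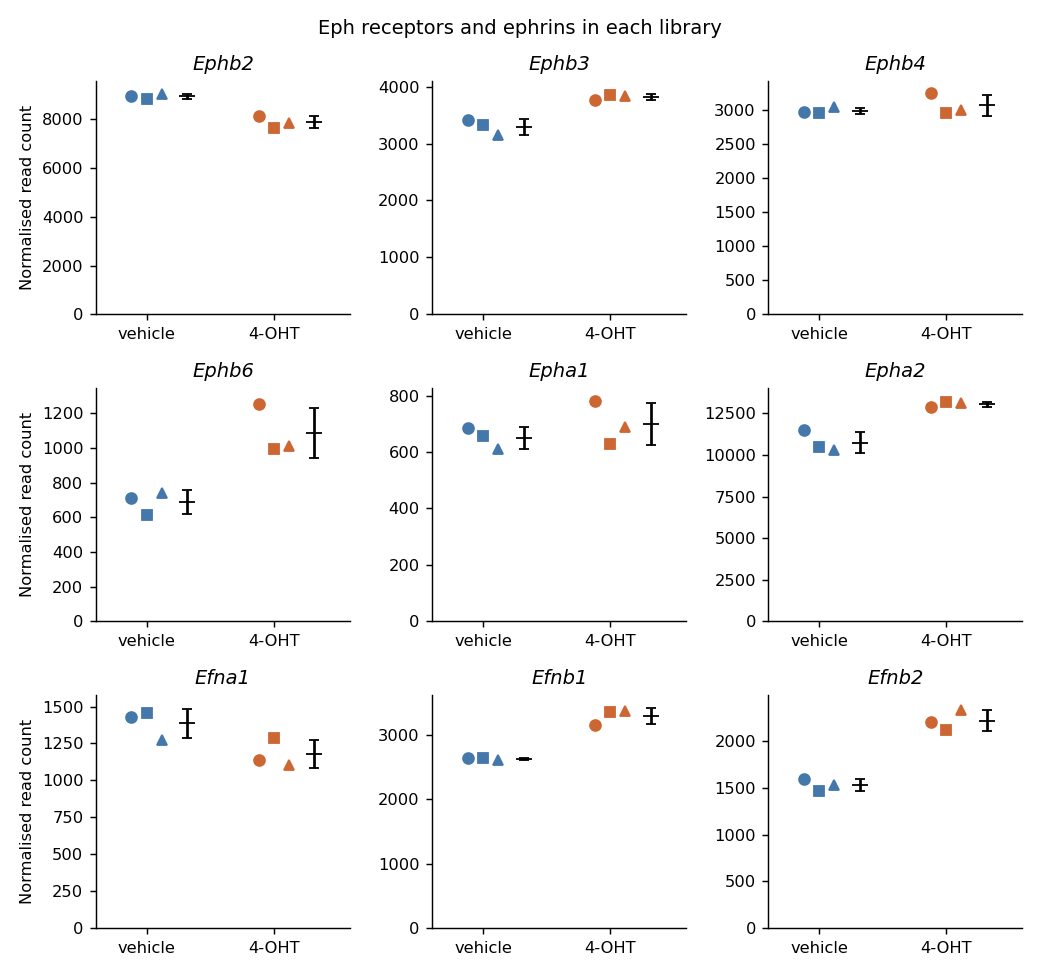
Normalised read counts (linear axes from 0) of each Eph receptor and ephrin in the 3 vehicle (blue) and 3 4-OHT (orange) libraries, with circles, squares and triangles for replicates 1, 2 and 3 and black bars for the mean and SD. Ephb6, Epha2, Ephb3, Efnb1 and Efnb2 sit higher in every 4-OHT library, Ephb2 sits lower, and the groups overlap for Ephb4, Epha1 and Efna1.

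Among the B receptors, Ephb2, the receptor most used to grade position along the crypt, had normalised read counts of 8963, 8832 and 9038 in vehicle replicates 1, 2 and 3. In 4-OHT replicates 1, 2 and 3 it had 8133, 7649 and 7869. All 3 4-OHT libraries were thus below all 3 vehicle libraries, with the largest 4-OHT value in replicate 1. The mean went from 8945 ± 104 (SD, n = 3) to 7884 ± 242 (SD, n = 3), a change of -11.9%. The difference was -0.18 on the log2 scale, with an SE of 0.04 and a limma adjusted p of 0.0014, and it was -0.29 after quantile normalization. With 4-OHT replicate 1 alone against the vehicle libraries, the log2 fold change was -0.14 and did not pass the test (limma adjusted p = 0.076), whereas it passed with each single library left out.

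Ephb3, which acts together with Ephb2 in placing cells along the crypt, moved the other way. Its normalised read counts were 3406, 3327 and 3142 in the vehicle libraries and 3766, 3859 and 3830.5 in the 4-OHT libraries. The groups did not overlap, and the 4-OHT values were the more closely spaced. The rise of 16.0% was 0.21 on the log2 scale, with an SE of 0.05 and a limma adjusted p of 7.8e-04.

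Ephb6 encodes a receptor that lacks kinase activity and signals through its partners. It had 713, 613 and 742 in the vehicle libraries and 1252, 996 and 1014 in the 4-OHT libraries, the highest of which was replicate 1. The mean rose from 689 ± 67.7 (SD, n = 3) to 1088 ± 143 (SD, n = 3), or by 57.8%. At 0.65, its log2 fold change (SE 0.09 and limma adjusted p = 3.5e-06) was the largest of the 9, and 1476 of the tested genes had a larger one in either direction. With 4-OHT replicate 1 alone it was 0.87.

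Ephb4, a receptor for ephrin-B2 best known from veins, had 2964, 2962 and 3039 in the vehicle libraries and 3244, 2955 and 3003 in the 4-OHT libraries. The groups overlapped, with replicate 1 of the 4-OHT group above the rest. Its log2 fold change was 0.04 with a 95% interval from -0.06 to 0.14 (limma adjusted p = 0.57), and its sign depended on the scaling, with -0.0042 after quantile normalization. The 7 endothelial genes found, Pecam1, Cdh5, Kdr, Tek, Plvap, Flt1 and Eng, together took at most 1.93 RPM in any library.

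Among the A receptors, Epha2, a receptor of epithelial cells that binds ephrin-A1, had the highest counts of the members. It had 11490.4, 10463 and 10284 in the vehicle libraries and 12894, 13189 and 13108 in the 4-OHT libraries. Every 4-OHT value was above every vehicle value, with the vehicle libraries the more widely spread. The rise of 21.6% was 0.28 on the log2 scale (SE 0.05 and limma adjusted p = 4.4e-05), or 0.18 after quantile normalization. Epha1, an epithelial receptor of the same class, had 685, 655 and 610.1 in the vehicle libraries and 780.0, 630.2 and 688 in the 4-OHT libraries. These groups overlapped. Its log2 fold change was 0.10 with a 95% interval from -0.06 to 0.27 (limma adjusted p = 0.32), and 0.26 with 4-OHT replicate 1 alone.

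The ligands did not move in one direction. Efnb1, which encodes ephrin-B1, a membrane-spanning ligand of Ephb2 and Ephb3, had 2638, 2638 and 2610.1 in the vehicle libraries and 3157, 3362 and 3364 in the 4-OHT libraries. The vehicle values were almost the same, and the 4-OHT values were all higher, with replicate 1 the lowest. The mean rose by 25.3%, from 2629 ± 16.0 to 3294 ± 119 (SD, n = 3 each), which was 0.32 on the log2 scale (SE 0.05 and limma adjusted p = 1.0e-05).

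Efnb2 encodes ephrin-B2, the other B ligand of the epithelium and the partner of EphB4 in vessels. It had 1596, 1471 and 1535 in the vehicle libraries and 2209, 2118 and 2337 in the 4-OHT libraries, with a wide gap between the groups. Its rise of 44.8%, or 0.53 on the log2 scale (SE 0.05 and limma adjusted p = 1.4e-07), was the largest among the ligands. It was also 0.53 with 4-OHT replicate 1 alone.

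Efna1 encodes ephrin-A1, a lipid-anchored ligand of EphA2. It had 1429, 1456 and 1271 in the vehicle libraries and 1141, 1286 and 1104 in the 4-OHT libraries. The groups overlapped, since 4-OHT replicate 2 was above vehicle replicate 3. It fell by 0.24 on the log2 scale (SE 0.07, limma adjusted p = 0.0073), a change of -15.1%, while its receptor Epha2 rose. Over all alternatives the limma, edgeR and DESeq2 adjusted p-values of Efna1 ran from 0.0015 to 0.049, the nearest to the threshold among the members called in all of them.

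**Figure D2:**
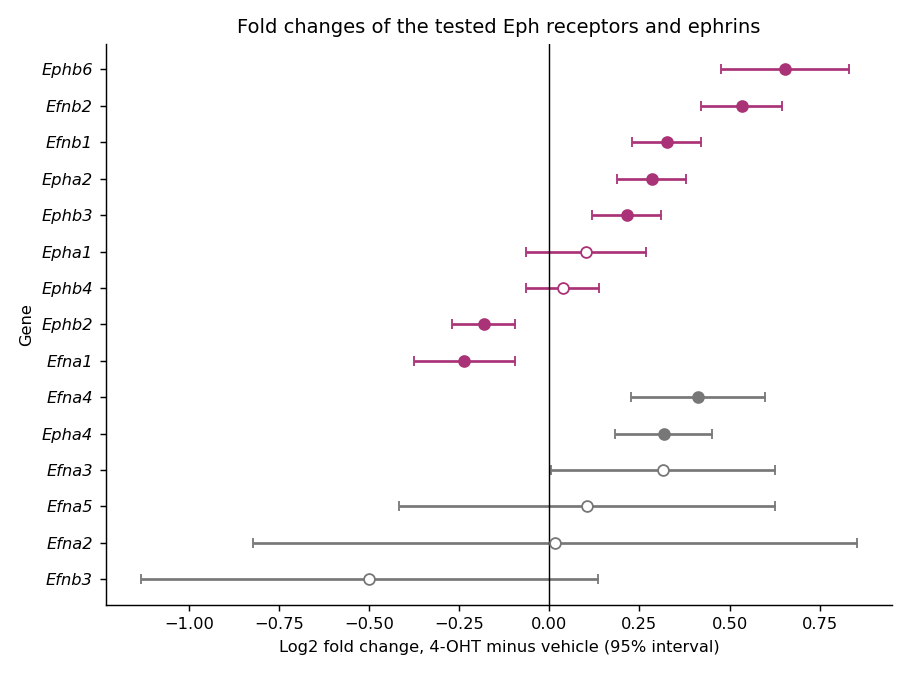
Log2 fold changes (4-OHT minus vehicle, horizontal axis) with 95% intervals from limma for the 9 members (purple) and the 6 other Eph and ephrin genes with a mean of at least 10 (grey). Filled points passed the adjusted threshold and open points did not, and Ephb6 (0.65) and Ephb2 (-0.18) lie on opposite sides of 0.

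The proportions between members were compared as well. The ratio of Ephb2 to Ephb3 normalised read counts was 2.63, 2.65 and 2.88 in the vehicle libraries and 2.16, 1.98 and 2.05 in the 4-OHT libraries. The ratio of Ephb2 to Efnb1, a receptor against a ligand that marks the opposite end of the crypt axis, was 3.40, 3.35 and 3.46 in the vehicle libraries and 2.58, 2.27 and 2.34 in the 4-OHT libraries. Neither ratio overlapped between the groups, and both were lower in 4-OHT organoids. This follows from the values above, since Ephb2 was lower and Ephb3 and Efnb1 were higher in every 4-OHT library. The ratios give the size of the shift and are no further evidence for it. The mean log2 ratio changed by -0.40 for Ephb2 to Ephb3 and by -0.51 for Ephb2 to Efnb1. The exact two-sided permutation test gave p = 0.1 for each of the 2 ratios, which is the smallest value that 3 libraries against 3 can give, so neither could pass the threshold.

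**Figure D3:**
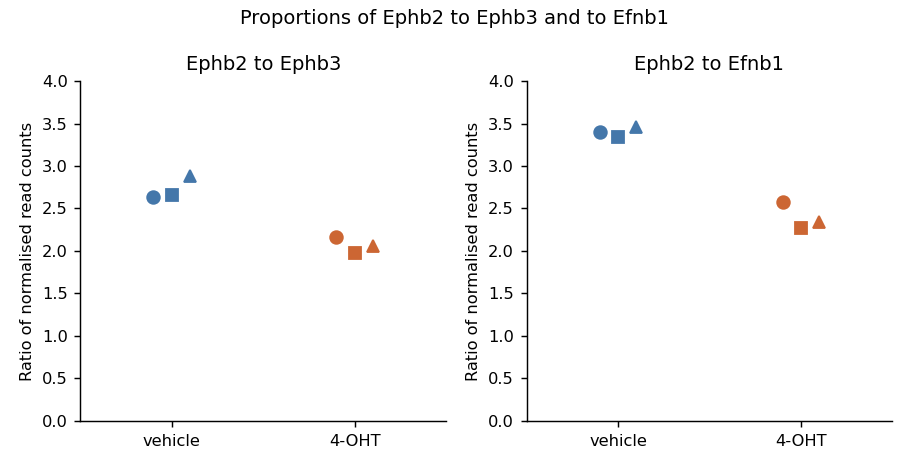
Ratio of normalised read counts of Ephb2 to Ephb3 (left) and of Ephb2 to Efnb1 (right) in each vehicle (blue) and 4-OHT (orange) library, with circles, squares and triangles for replicates 1, 2 and 3. Both ratios are lower in all 3 4-OHT libraries, by -0.40 and -0.51 on the log2 scale.

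Levels were compared between genes per kilobase of merged exon, with lengths from GENCODE vM21 that run from 1830 bases for Efna1 to 10908 for Ephb2. That annotation is of GRCm38, not the build in the submitters' notes. Merged exons can also be longer than the transcript that is expressed, so the order is approximate. In vehicle organoids Epha2 led with 2746 ± 166 normalised read counts per kilobase (SD, n = 3). Ephb2 (820.0), Efnb1 (807), Efna1 (757), Ephb4 (684) and Ephb3 (576) followed. Efnb2 (320.0), Epha1 (192) and Ephb6 (183) were the lowest. Of these neighbors, Ephb2 and Efnb1, Efna1 and Ephb4, and Epha1 and Ephb6 overlapped in their 3 values.

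In 4-OHT organoids Epha2 again led with 3339 ± 38.9 per kilobase, and Efnb1 (1011) came second with values above every value of Ephb2 (723). This order rests on the lengths used. Before division by length, Ephb2 had 2.58, 2.27 and 2.34 times the count of Efnb1 in 4-OHT replicates 1, 2 and 3. Ephb4 (702), Ephb3 (668) and Efna1 (643) lay close together, with overlaps between Ephb2 and Ephb4 and of Efna1 with Ephb3, Ephb4 and Ephb2. Efnb2 (463), Ephb6 (289) and Epha1 (207) stood below without overlap. The places that changed were those of Efnb1 and Ephb2 and of Ephb6 and Epha1, each overlapping in vehicle organoids, and of Efna1 with Ephb3, overlapping in 4-OHT organoids, and with Ephb4, overlapping in both groups.

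**Figure D4:**
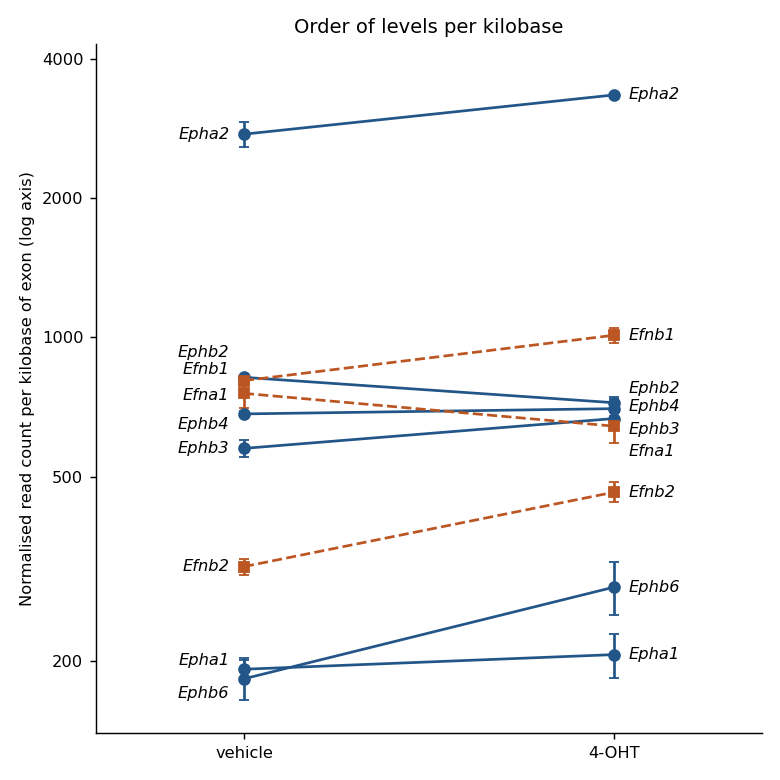
Mean normalised read count per kilobase of exon (log axis) of each member in vehicle and 4-OHT organoids, with SD bars over 3 libraries, receptors as blue circles with solid lines and ligands as orange squares with dashed lines. Epha2 stays at the top (2746 and 3339), and Efnb1 moves above Ephb2.

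The remaining family genes were examined to set the members in their context. Of 7 other receptors found, Epha4, a receptor that binds both ephrin classes, had a mean of at least 10. It rose from 1504, 1412 and 1274 in the vehicle libraries to 1780.1, 1604 and 1832 in the 4-OHT libraries, or by 0.32 on the log2 scale (SE 0.06 and limma adjusted p = 5.2e-04). Epha3 had 3 to 11 reads per vehicle library and 2 to 8 per 4-OHT library, and Epha5, Epha7 and Epha10 had at most 2 reads in any library. Ephb1 and Epha8 had 0 reads in all 6 libraries, which allows up to 3 reads in each for counting error alone, and Epha6 was not analysed here.

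Of the 5 other ephrins, 1 passed the test. Efna4, a lipid-anchored ligand, had 399, 426 and 508 in the vehicle libraries and 592, 624 and 552 in the 4-OHT libraries, and rose by 0.41 on the log2 scale (SE 0.09, limma adjusted p = 8.3e-04). Efna3 had 154, 123 and 115 against 192, 159 and 139, with overlapping groups and a log2 fold change of 0.32 (limma adjusted p = 0.095). Efna2, Efna5 and Efnb3 had vehicle means of 19.9, 42.4 and 30.4 and log2 fold changes of 0.02, 0.10 and -0.50, none of which passed (limma adjusted p = 0.98, 0.77 and 0.20). Efna1, Efna3 and Efna4 are neighbors on chromosome 3, all on the minus strand, with 42.0 kb between the starts of Efna1 and Efna3 and 15.1 kb between those of Efna3 and Efna4 in GRCm38.p6, and within this cluster Efna1 fell while Efna4 rose. Ephb2 and Epha8 start 121 kb apart on chromosome 4, and Epha8 had 0 reads.

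Genes of Eph and ephrin signalling were then grouped by role. Of 34 tested genes of forward signalling, which carry the signal of the receptor, 12 rose and 7 fell, beside 22.7% and 21.0% of all tested genes, with a median log2 fold change of 0.04. With 4-OHT replicate 1 alone, 12 of the 34 passed in either direction. The largest rises were in Kalrn, an exchange factor for Rac (0.69, from 728 ± 47.3 to 1175 ± 93.7), Src, the tyrosine kinase (0.47, from 3980 ± 120.3 to 5507 ± 127), and Rasa1, a Ras GTPase-activating protein bound by EphB2 (0.35, from 1039 ± 26.4 to 1326 ± 96.5). The largest falls were in Grb10, an adaptor (-1.04, from 713 ± 53.7 to 348 ± 65.5), Vav3, an exchange factor (-0.70, from 361 ± 15.7 to 221 ± 13.8), and Sipa1l1, a GTPase-activating protein for Rap (-0.38, from 3975 ± 41.1 to 3053 ± 164). All 6, picked as the largest called changes, had groups that did not overlap, as had 52.1% of all tested genes (SD, n = 3 each).

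Of 11 genes of ephrin-B reverse signalling, 2 rose and 3 fell, with a median of -0.02, and these 5 of 11 are close to the 43.6% called among all tested genes. Pard6b, a Par6 polarity protein that binds aPKC, rose by 0.50 (from 1931 ± 96.5 to 2741 ± 139), and its paralog Pard6a fell by 0.60 on the log2 scale (from 151 ± 19.0 to 99.2 ± 15.2). Sdcbp, the PDZ protein syntenin that binds the tail of B ephrins, rose by 0.44 (from 5852 ± 49.7 to 7970.0 ± 296). Dvl2, the Wnt pathway protein Dishevelled 2, and Stat3, a transcription factor, had log2 fold changes of -0.33 and -0.13 and passed as falls (SD, n = 3 each).

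Of 9 tested genes of shedding and cell contact, 5 rose and 0 fell, with a median of 0.16. Of all tested genes 43.6% passed, 22.7% as higher and 21.0% as lower. The number called was 3 without vehicle replicate 1, vehicle replicate 2 or 4-OHT replicate 2, 2 without vehicle replicate 3, 3 with DESeq2 and 2 with 4-OHT replicate 1 alone. The 9 log2 fold changes ran from 0.03 to 0.32. All were above 0 in limma, edgeR and DESeq2, which used the same libraries, so 0 falls could be called at any threshold. Cdh1, which encodes E-cadherin, rose by 0.32 (from 31667 ± 509 to 39490.4 ± 560.2). Psenen, a subunit of gamma-secretase, rose by 0.24 and Rhbdl2, a rhomboid protease that cleaves B ephrins, by 0.20. Adam10, the sheddase of ephrins and E-cadherin, had a log2 fold change of 0.12 and did not pass (limma adjusted p = 0.057).

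Of 12 tested Wnt target genes, the class that Ephb2 and Ephb3 belong to, 3 rose and 4 fell, with a median of -0.03, beside 22.7% higher and 21.0% lower among all tested genes. Lgr5, the stem cell receptor for R-spondins, Ascl2, a stem cell transcription factor, and Znrf3, a ligase that removes Wnt receptors, had log2 fold changes of -1.06, -0.55 and -0.53. Cd44, an adhesion receptor, Sox9, a transcription factor of crypt cells, and Ccnd1, cyclin D1, had log2 fold changes of 0.59, 0.36 and 0.22. These 6 were picked among the genes that passed the test. Axin2 (-0.23) was the remaining called fall, and 5 of the 12 did not pass. The list thus held genes that fell, as Ephb2 did, genes that rose, as Ephb3 did, and genes not called.

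**Figure D5:**
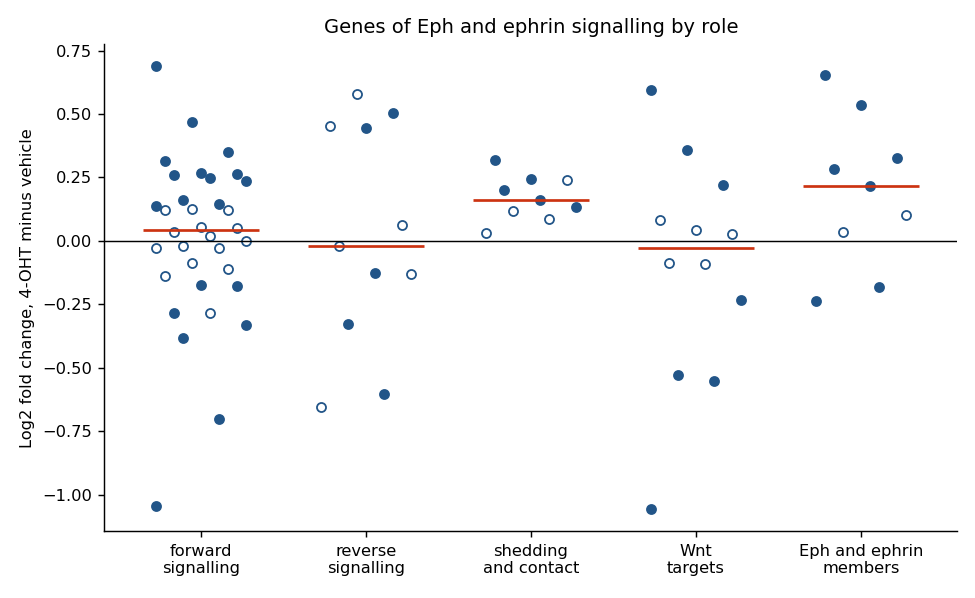
Log2 fold changes (4-OHT minus vehicle) of the tested genes of 4 lists and of the 9 members, 1 point a gene, filled where the gene passed the adjusted threshold, with red lines at the medians (0.04, -0.02, 0.16, -0.03 and 0.21). The members lie between -0.24 for Efna1 and 0.65 for Ephb6.

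The genes most like Ephb2 across the 6 libraries, by Pearson r of log2 normalised read counts, were Prpf4, a splicing factor, Nsun5, an RNA methyltransferase, and Gcn1, a ribosome-bound activator of the kinase GCN2, each with r = 0.999. Ercc6l, a mitotic helicase, and Kif26b, a kinesin family protein, followed with r = 0.998. There were 826 tested genes with r over 0.95, and the 6 libraries behind these values fall into the 2 groups compared. The log2 fold changes of these 5 genes were -0.43, -0.39, -0.32, -0.71 and -0.62.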

How the data were processed

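Total RNA was taken from 6 organoid samples (3 vehicle, 3 4-OHT), and the libraries were made and sequenced by a service provider. The deposited signal is a normalised read count, gene counts that the authors divided by 1 size factor per library, scaled neither to a fixed total nor to length. The submitters' processing notes name STAR, DESeq2 and the build GRCm39 (mm39). The counter, annotation and strand setting are not given in the sources used here, so reads of overlapping or antisense genes could not be told apart. In each library 100% of values lay within 0.1 reads of a whole number of reads, which were recovered.

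Groups came from the sample titles. Values were compared with limma 3.58.1 (trend, R 4.3.3) on log2(value + 1), over rows with a mean of at least 10, with Benjamini-Hochberg adjustment over all 13210 rows, a two-sided threshold of 0.05, and 95% intervals from the moderated fit. A fold change on this scale slightly understates that of low genes. Percentages are changes of the mean normalised count. Alternatives were pseudocounts of 0.1 and 10, no filter, TMM factors, a mean of at least 50, the replicate number as a block, quantile normalization, edgeR 4.0.16 (quasi-likelihood) and DESeq2 1.42.0 on whole reads, and each library left out. The fit with 4-OHT replicate 1 alone was chosen after seeing the data. The code was tested on simulated data. Libraries of a group differed by 3.49 to 6.44 times the variance of counting (chi-square over its degrees of freedom), so none was a copy of another. Markers of cell types were summed as reads per 1000000 whole reads (RPM).

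The members and lists were chosen with earlier results of these data known. The genes named were every member, every other Eph receptor and ephrin found, Prkci and Prkcz, up to 3 largest rises and 3 largest falls among called genes of each list, and the 5 genes most like Ephb2. Adam10 was named after its value was seen.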

Additional observations from a re-analysis of the deposited data

How the results depend on the processing

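The numbers of members higher (5) and lower (2) in 4-OHT were the same under every alternative chosen at the start, including each library left out (5 to 5 and 2 to 2). With 4-OHT replicate 1 alone, where the lone library is assumed to vary like the vehicle group, 6 were higher and 1 lower. Over all tested genes, 4946 to 5636 changed with a library left out and 3848 with 4-OHT replicate 1 alone, against 5765. The replicate block gave 5637 genes and changed no member's call, with 1 call fewer in each of the reverse signalling list (4) and the shedding and contact list (4). Same-numbered libraries had correlations of -0.0074, 0.030 and -0.020 after group means were removed, and not every library correlated best with its own number, so the numbers show no pairing. With a library left out, changed genes numbered 14 to 19 in the forward signalling list, 4 to 5 in the reverse signalling list, 2 to 6 in the shedding and contact list (3, 3 and 2 without vehicle replicates 1, 2 and 3, and 3 without 4-OHT replicate 2) and 7 to 8 in the Wnt target list. The shedding and contact list had 3 changed genes with DESeq2 and 2 with 4-OHT replicate 1 alone, and the forward signalling list had 12 with 4-OHT replicate 1 alone. The log2 ratio changes ran from -0.43 to -0.36 for Ephb2 to Ephb3 and from -0.56 to -0.47 for Ephb2 to Efnb1 with a library left out. Directions that reversed were those of genes that never passed: Ephb4 (-0.0042 with quantile normalization, -0.0043 to 0.063 with a library left out), Efna2 (-0.027 with a pseudocount of 10, -0.14 with edgeR, -0.15 with DESeq2, -0.41 to 0.47 with a library left out) and Efna5 (-0.11 to 0.28 with a library left out, -0.19 with 4-OHT replicate 1 alone). Efna3 passed as a rise in 3 fits, without vehicle replicate 1 (0.44), without 4-OHT replicate 3 (0.43) and with 4-OHT replicate 1 alone (0.56). For the counts and directions above, the cause was not tested. With a mean of at least 50, Efna2, Efna5 and Efnb3 gave no value. Depth limits Ephb1 and Epha8, at 0 reads, and Epha3, Epha5, Epha7 and Epha10, with at most 11 reads in any library.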
